A study of Mus musculus with 18 samples.

Results

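The early B-cell factor (EBF) family of the mouse comprises 4 transcription factor genes, Ebf1, Ebf2, Ebf3 and Ebf4, which were taken by symbol from a comparison table of 35734 genes in fibroblasts and from 21887 protein-coding gene windows in retinal nuclei. They had been selected with the values of the fibroblast comparison in view, so those values are given here as a description without a test. The fibroblasts were mouse embryonic fibroblasts of the R26-M2rtTA line on a C57BL/6 background. Lentiviral vectors that doxycycline switches on brought Brn2 and Myt1l, 2 neuronal transcription factors, into all of them, and all had been kept in doxycycline for 48 h. The group called BM received these 2 factors alone, and the group called BM/Ikzf1/4 received vectors for Ikzf1 and Ikzf4, zinc finger factors of the Ikaros family, in addition, with 3 RNA-seq libraries per group. Both groups therefore express Brn2 and Myt1l from vectors, and no group without vectors was analysed here. The labels do not say whether the 3 libraries came from separate cultures, so the errors of the comparison may be technical.

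The retinal data were 1 multiome ATAC library per group, which reads the open chromatin of single nuclei. The control library is labelled as retina, Muller glia and mCherry, from GLAST-CRE ERT2 ; RosaYFP mice on C57BL/6, in which a glial promoter drives an inducible Cre. For the Ikzf1/4 library the labels name no tissue, line or strain, only the title. Tamoxifen and 14 days are in the description of both, but the run names in the file headers carry 48 h, and which time applies is not known here. No animal ages or numbers are given for these 2 libraries.

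EBF proteins bind DNA as dimers through a zinc-containing DNA-binding domain of their own kind, and a helix-loop-helix region lets them pair. Ebf1 is best known for committing lymphoid progenitors to the B lineage, where it works with E proteins and Pax5, but it is also expressed in mesenchymal stroma and adipocyte precursors. Ebf2 marks brown-fat precursors and acts in olfactory and cerebellar neurons, Ebf3 acts in neurons and in bone marrow stroma, and Ebf4 is the least studied. In the retina, Ebf genes are known from amacrine, ganglion and horizontal cell development.

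The promoters of the members are shown because the accessibility of the same start sites is described below, and because the members differ in their base composition. They are the 250 bases before a start site, from RefSeq with the build GRCm38.p6, written 5′ to 3′ on the strand of the gene, with capitals marking a match to a motif. The table used has start sites for Ebf1, Ebf3 and Ebf4.
Ebf1 chr11:44617850-44618099, plus strand: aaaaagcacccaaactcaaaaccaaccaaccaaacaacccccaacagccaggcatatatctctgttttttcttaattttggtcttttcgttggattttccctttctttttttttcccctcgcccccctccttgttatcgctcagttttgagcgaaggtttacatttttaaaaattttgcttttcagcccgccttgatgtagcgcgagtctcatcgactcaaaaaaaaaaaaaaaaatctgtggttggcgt
Ebf3 chr7:137314446-137314695, minus strand: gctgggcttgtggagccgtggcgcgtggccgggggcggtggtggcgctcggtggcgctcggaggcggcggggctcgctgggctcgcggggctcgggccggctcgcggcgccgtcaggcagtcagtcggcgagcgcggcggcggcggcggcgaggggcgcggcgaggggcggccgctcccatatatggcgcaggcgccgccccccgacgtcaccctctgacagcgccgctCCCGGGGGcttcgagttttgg
Ebf4 chr2:130295689-130295938, plus strand: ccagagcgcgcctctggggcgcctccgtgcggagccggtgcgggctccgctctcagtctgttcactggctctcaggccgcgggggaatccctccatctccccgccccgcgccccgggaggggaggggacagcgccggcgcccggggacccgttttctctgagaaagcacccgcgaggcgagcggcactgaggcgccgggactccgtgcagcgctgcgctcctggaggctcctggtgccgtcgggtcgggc

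The Ebf1 promoter held 40% G or C, at the 11.8 percentile of 32851 promoters of the same length, whose median was 52.4%. That of Ebf3 held 80.0%, at the 98.8 percentile, and that of Ebf4 held 75.2%, at the 96.1 percentile. The promoter of a second Ebf1 start site held 52%, at the 48.4 percentile. Motifs were searched on both strands. The palindrome CCCNNGGG, the core of the EBF motif, was found 21 bases before the Ebf3 start site, and 11.8% of all promoters hold it. TGGGAA, a core bound by Ikaros proteins, was not in these 3 windows, while 21.6% of all promoters hold it. It had 1 match on the minus strand, 207 bases before the second Ebf1 start site, at position 44620228. The E-box CAGCTG, which 13% of promoters hold, was in none of the 4 windows searched. The windows printed for Ebf3 and Ebf4 lie inside the outer bounds of their genes, so other transcripts of these genes begin further upstream.

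In the fibroblasts, Ebf1 was lower and Ebf3 and Ebf4 were higher in the group with Ikzf1 and Ikzf4, while Ebf2 was low in both groups. In the authors' deposited table, Ebf1 (ENSMUSG00000057098), the B-lineage and stromal member, had a mean normalised count of 655 over the 6 libraries and a log2 fold change of -0.95 (SE 0.10). With equal groups, this mean and this fold imply about 863 in BM and 447 in BM/Ikzf1/4. Ebf1 had the 185th lowest fold change of the 16757 genes with an adjusted p, at the 1.10 percentile. In such bulk samples, fewer cells of a type and less RNA per cell cannot be told apart.

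Ebf3 (ENSMUSG00000010476), the neuronal and stromal member, had a mean normalised count of 490 and a log2 fold change of 0.67 (SE 0.10) in the authors' deposited table. The implied group means were 378 in BM and 601 in BM/Ikzf1/4. It stood at the 96.9 percentile of fold changes. Ebf4 (ENSMUSG00000053552) had a mean of 557 and a log2 fold change of 0.42 (SE 0.10) in the authors' deposited table, with implied means of 478 and 637. Ebf2 (ENSMUSG00000022053), the brown-fat precursor marker, had a mean of 36.9 and a log2 fold change of 0.02 (SE 0.22) in the authors' deposited table. With so low a mean, the error of Ebf2 may be wider than this one. The values of single libraries are not given per gene in that table, so whether the groups overlapped was not analysed here.

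At an adjusted p under 0.05 in the authors' deposited table, 3 of 4 members were called, 1 lower and 2 higher. Over all 16757 genes with an adjusted p, 30.6% were called, 15.3% higher and 15.4% lower. Since the members were selected on this contrast, nothing is read from the difference between these shares. Genes at a like level give a scale for the sizes. Of 1914 genes with a mean of 400 to 800 in the authors' deposited table, the median absolute log2 fold change was 0.18. A value at least as large as that of Ebf1 was held by 51 of them (2.67%), as large as that of Ebf3 by 118 (6.17%) and as large as that of Ebf4 by 312 (16.3%). Ebf1, Ebf3 and Ebf4 thus all lay within the range that genes of this level showed, where the highest absolute value was 2.96.

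**Figure D1:**
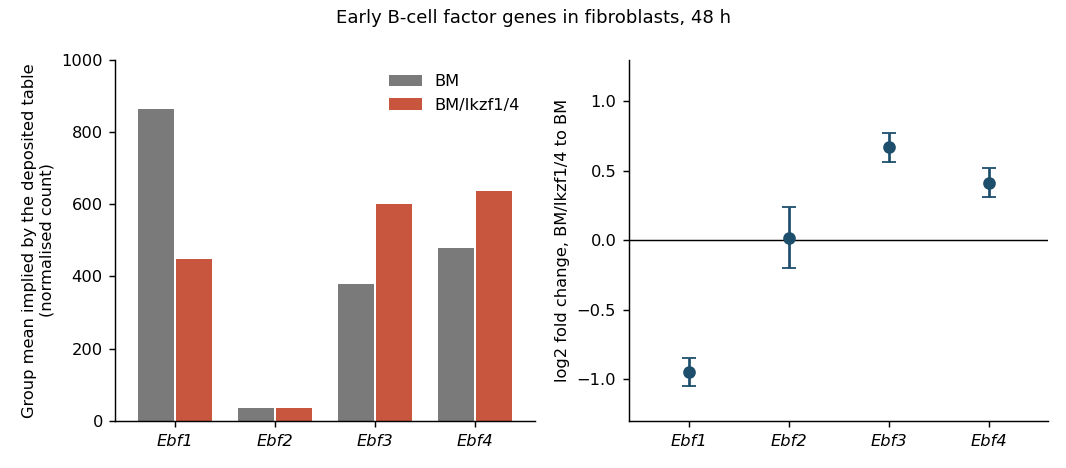
The left panel plots the group mean (normalised count) implied by the authors' deposited table for each Ebf gene, in BM and BM/Ikzf1/4, and the right panel the log2 fold change with its standard error as a bar. Ebf1 goes from 863 to 447, Ebf3 from 378 to 601 and Ebf4 from 478 to 637, while Ebf2 stays near 37.

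The summed implied level of the family was close in both groups, but no error was computed for this sum. The members were selected with these fold changes in view, so the sum is only a description. The 4 implied means added up to 1756 in BM and 1723 in BM/Ikzf1/4, a change of -1.86%. Ebf1 made up 49.2% of this sum in BM and 26% in BM/Ikzf1/4. The share of Ebf3 was 21.6% and 34.9%, and that of Ebf4 was 27.2% and 37.0%. These shares are of normalised counts that are not scaled to transcript length, so they describe the sum of counts and not of molecules. The implied means rest on fold changes that have the form of shrunk values. Among 6914 genes with a mean of at most 2 the median standard error was 0.05 in the authors' deposited table, against 0.11 among 1914 genes with means of 400 to 800. Errors this small at the lowest means go with shrinkage, so the implied changes, most of all that of Ebf2, may be understated.

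The neighbours of Ebf1, Ebf3 and Ebf4 in the genome had smaller fold changes than these members, except Rnf145 beside Ebf1, whose size was near that of Ebf4. Rnf145, 52.6 kb from Ebf1, had a log2 fold change of 0.43 (SE 0.04) in the authors' deposited table, opposite in sign to that of Ebf1. Clint1, the neighbour on the other side, was at 0.04 (SE 0.05). Beside Ebf3, Mgmt was at 0.20 (SE 0.07) and 9430038I01Rik at -0.09 (SE 0.19). Beside Ebf4, Idh3b was at -0.21 (SE 0.06) and Cpxm1 at -0.11 (SE 0.14). The neighbours of Ebf2 were Ppp2r2a at 0.11 (SE 0.04) and Cdca2 at 0.10 (SE 0.16).

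The cultures held the markers of fibroblasts. Most markers of blood cells other than B cells, some of endothelial cells and muscle, and a single one of neurons were also present. All 12 fibroblast markers were present, and 8 were called lower and 0 higher with Ikzf1 and Ikzf4 in the authors' deposited table, with a median log2 fold change of -0.38. The lower Ebf1 level moved with these markers, and their part in it was not tested. The 7 B-cell markers all had a mean under 10, with Ms4a1 highest at 9.17, and none was called. Of 6 other blood-cell markers only Cd3e, at 0, had a mean under 10. Csf1r was at 2580, Adgre1 at 1620, Ptprc at 1168, Cd68 at 1146 and Itgam at 522, and none was called. Of 4 endothelial markers Pecam1 was highest, at a mean of 132, and none was called. Of 4 neuron markers, Syt1, a synaptic vesicle protein, had a mean of 7600 and was called lower, at -0.47 (SE 0.06) in the authors' deposited table, while the other 3 had means under 10 and were not called. It thus moved in the direction of the fibroblast markers and of Ebf1, and its part was not tested. Of 4 skeletal muscle markers Acta1 was highest, at a mean of 709, and none was called. The added factors were higher as the labels say, Ikzf4 by 8.54 (SE 0.15) and Ikzf1 by 7.76 (SE 0.17) on the log2 scale in the authors' deposited table. Myt1l, which both groups received, was also higher with them, by 0.50 (SE 0.17, DESeq2 adjusted p 0.0157), and its part in the values of the Ebf genes was not tested. Pou3f2, the gene of Brn2, was at -0.05 (SE 0.08). The RNA libraries held 34966344 to 44270426 estimated reads.

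Genes around the EBF factors were described by 5 lists of 20 genes, set beside the 30.6% of all genes called. The list of EBF partners and regulators had 19 genes with an adjusted p, of which 4 were called higher and 3 lower (36.8%), with a median log2 fold change of -0.03 against 0.00 over all genes. Id2, an inhibitor of E proteins, rose by 0.64 on the log2 scale (SE 0.08) in the authors' deposited table. Chd4, the ATPase of the NuRD complex that acts with both EBF1 and Ikaros proteins, rose by 0.27 (SE 0.05). The other calls went both ways, with Id1 at 0.37 (SE 0.11), Id3 at -0.33 (SE 0.07) and Tcf4, an E protein, at -0.31 (SE 0.07). The share called was near that of all genes.

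Of B-lineage genes known as EBF1 targets, 13 of 20 had a mean under 10 and 9 had an adjusted p, of which 0 were called higher and 2 lower (22.2%). Cr2, a complement receptor, fell by 1.24 on the log2 scale (SE 0.18) in the authors' deposited table, at a mean of 457. Cd24a, a surface glycoprotein, fell by 0.20 (SE 0.05). Cd53 was at 0.13 (SE 0.10) and Blnk at 0.10 (SE 0.18), both not called. The cultures, which also held markers of other blood cells, thus had few B-lineage transcripts in which a change could be read. Which cells these transcripts came from was not tested.

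Of 20 adipocyte and brown-fat genes, 15 had an adjusted p, of which 2 were called higher and 3 lower (33.3%). Ppargc1a, a coactivator of mitochondrial genes, rose by 1.97 on the log2 scale (SE 0.19) in the authors' deposited table at a mean of 135. Cebpd, an early adipogenic factor, fell by 0.76 (SE 0.13), and Dio2, a deiodinase, by 0.74 (SE 0.22). Of 20 mesenchymal stroma genes, all with an adjusted p, 2 were called higher and 7 lower (45.0%), with a median of -0.08. Tnfrsf11b, the decoy receptor osteoprotegerin, fell by 1.20 on the log2 scale (SE 0.08) in the authors' deposited table, and Vcam1, an adhesion molecule, by 0.60 (SE 0.05). Grem1, a BMP antagonist, rose by 0.75 (SE 0.09). Of neuronal genes downstream or upstream of EBF factors, 15 had an adjusted p, of which 3 were called higher and 1 lower (26.7%). Isl1, a LIM homeodomain factor, rose by 2.21 on the log2 scale (SE 0.21) in the authors' deposited table at a mean of 84.7, and Onecut2 rose by 1.33 (SE 0.10). Tubb3, neuronal beta tubulin, fell by 0.42 (SE 0.10). These are the calls of the authors' DESeq2 comparison with its adjusted p, and 9 of the 20 neuronal genes had a mean under 10.

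In the multiome, nuclei were kept at 3000 or more fragments, which left 1881 of the control and 695 of the Ikzf1/4 library, with medians of 6243 and 10992 fragments. The 2 libraries shared 3 cell barcodes. Clusters were made from gene windows without the 4 Ebf genes and named by markers. The control nuclei were 33.6% Muller glia-like, 33.9% bipolar-like, 14.1% cone-like, 5.05% rod-like, 5.85% microglia-like and 3.83% amacrine-like, so the Muller glia label did not describe most of them. Only the rod-like cluster and 3 of the 4 bipolar-like clusters had a marker from the naming list of their type among their 10 leading genes. The largest bipolar-like cluster, of 406 nuclei, and every Muller glia-like, cone-like, microglia-like and amacrine-like cluster had no listed marker there. These names thus rest on listed markers past 1.5-fold further down. At a higher clustering resolution a cluster of 242 nuclei had ganglion cell markers highest. The Ikzf1/4 library held 139 Muller glia-like, 237 bipolar-like, 144 cone-like, 139 rod-like, 18 microglia-like and 4 amacrine-like nuclei. The amacrine-like values below therefore come almost wholly from the 72 control nuclei. Intervals cover the counting error of fragments only, and with 1 library per group there is no test of the condition. Overlap of separate intervals does not show that values are alike, and ratio intervals were not computed within classes or clusters.

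The 2 longest genes had few open bins. The window of a gene is its body with 2 kb on both sides. The Ebf1 window (394.0 kb, chromosome 11) had 0.58 times the genome's mean density of transposase cuts, and the Ebf2 window (201.7 kb, chromosome 14) had 0.62 times. The Ebf3 window (133.1 kb, chromosome 7) had 1.48 times and the Ebf4 window (79.4 kb, chromosome 2) 1.46 times, where the median of 4945 genes of 50 kb or more was 1.38. Bins of 500 bp with at least 5 times the mean density are called open here. They made up 0.76% of the Ebf1 window, 0.99% of the Ebf2 window, 3.37% of the Ebf3 window and 3.15% of the Ebf4 window, against a median of 2.75% over the same genes.

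Across classes of nuclei, the windows of Ebf1 and Ebf3 were most accessible in amacrine-like nuclei, and that of Ebf4 differed little between classes. For Ebf1, fragments scaled to the total of the nuclei (counts per 1000000, CPM) over both libraries were 171.7 in amacrine-like nuclei (95% interval 142 to 205). They were 95.4 in rod-like, 82.7 in bipolar-like and 79.1 in cone-like nuclei, whose intervals overlap, then 63.7 in Muller glia-like and 51.6 in microglia-like nuclei. In control nuclei alone the amacrine-like value was 184.6 (152 to 222). In the Ikzf1/4 library 5 fragments from 4 nuclei gave 65.9 (21.4 to 154).

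For Ebf3 the order was 163.2 in amacrine-like (135 to 196), 113.1 in rod-like (99.3 to 128), 94.5 in cone-like (85.6 to 104) and 77.0 in microglia-like nuclei. Muller glia-like and bipolar-like nuclei were lowest, both at 54.6. Amacrine-like nuclei lay above rod-like ones beyond counting error, while rod-like and cone-like intervals overlapped. For Ebf2 the values were 75.8 in amacrine-like (56.8 to 99.2), 52.8 in Muller glia-like, 45.6 in cone-like, 42.3 in bipolar-like, 29.0 in microglia-like and 26.6 in rod-like nuclei. The amacrine-like interval of Ebf2 overlapped that of Muller glia-like nuclei. For Ebf4 all 6 classes lay between 37.4 and 46.2, with overlapping intervals, but within the bipolar-like class cluster 9 was at 19.3 (10.8 to 31.8) and cluster 8 at 51.5 (40.2 to 65.1). The amacrine-like nuclei were the highest cluster of Ebf1, Ebf2 and Ebf3 among clusters of at least 20 nuclei. The share of all gene windows that were highest in this cluster was not computed, so this is not read as a trait of the family. An unnamed cluster of 77 nuclei came next for Ebf1, at 137.1 (120 to 156), and for Ebf2, at 65.6 (54.0 to 79.0), both with intervals that overlap the amacrine-like ones. In it, 14 Ikzf1/4 nuclei gave 139 of the 232 Ebf1 fragments. Their median depth was 5.37 times that of their library, and doublets were not called. Another unnamed cluster of 6 control nuclei was higher, at 436 for Ebf1 and 280 for Ebf2, and was too small to rank. The amacrine-like name rests on 5 of 6 amacrine markers past 1.5-fold, and ganglion cell markers were the next highest list in this cluster.

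**Figure D2:**
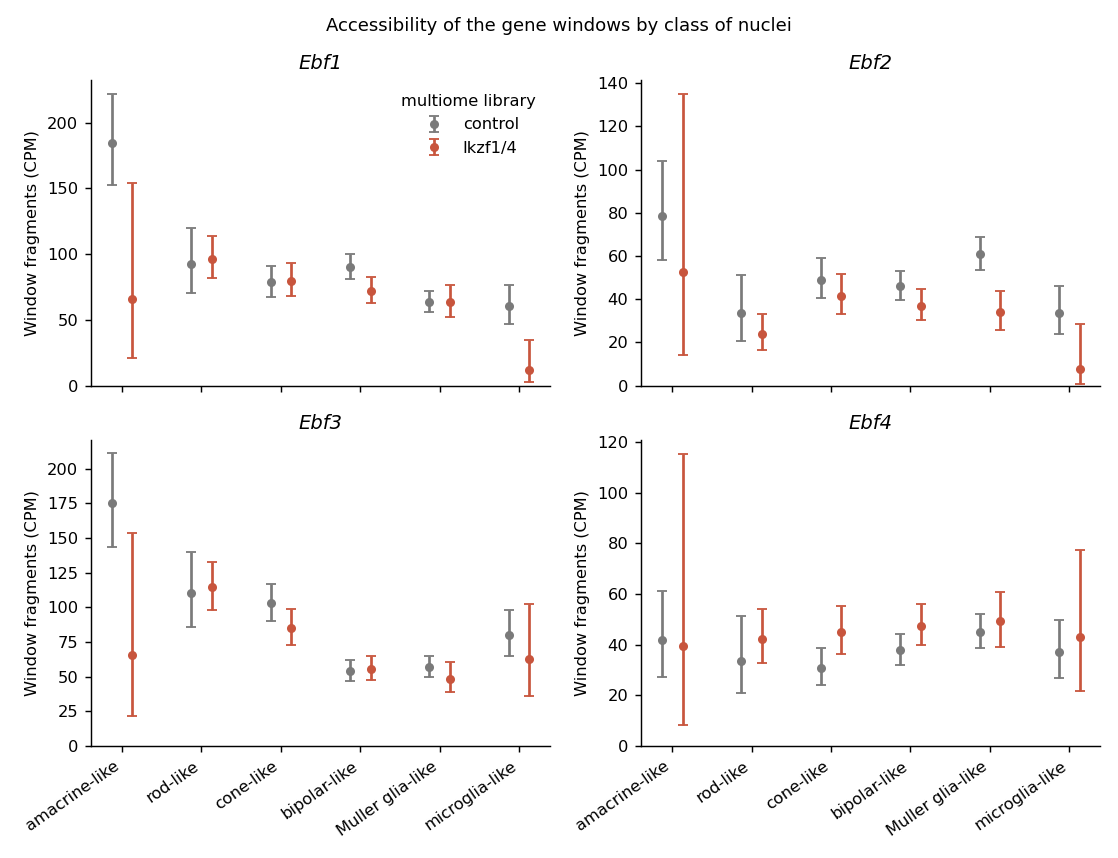
Fragments in each gene window (CPM, vertical axis) by class of nuclei (horizontal axis) and library, with 95% Poisson intervals as bars. Unnamed clusters are not drawn. Amacrine-like control nuclei stand at 184.6 for Ebf1 and 175.0 for Ebf3, while all Ebf4 values of the named classes lie between 30.7 and 49.2.

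Genes whose windows varied most like those of the members were found by correlation of log2(CPM + 1) over 13 clusters and 11494 windows, as a description, since the clusters share 2 libraries and their depths. For Ebf1 they were Spata17 (r 0.92), Grm8 (0.88) and Nsg2 (0.88). For Ebf3 they were Uchl3 (0.92), Tfap2a (0.90) and Srbd1 (0.90), and Tfap2a is one of the amacrine markers used for naming. For Ebf2 they were Bmp6 (0.90), Nmnat2 (0.88) and Ttc29 (0.88). For Ebf4 the highest values were lower, at 0.64 for Slc22a4 and Lrrc75b and 0.63 for Hip1r. Among the members themselves, Ebf1 and Ebf2 had an r of 0.64, Ebf1 and Ebf3 one of 0.58 and Ebf2 and Ebf3 one of 0.28. Ebf4 was at 0.06 with Ebf1, 0.19 with Ebf2 and -0.002 with Ebf3.

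The member windows held 18 open regions, 6 at Ebf1, 3 at Ebf2, 7 at Ebf3 and 2 at Ebf4, and none of them lay in the window of another protein-coding gene. Pooled nuclei define these regions, so classes with many nuclei weigh more in the choice. Positions are in GRCm38.p6, and the gene table used gives no exons. The region with the highest density of cuts, 37.9 times the genome mean, lay inside Ebf3, at chr7:137228501-137229500, 85.4 kb downstream of the start site. It held 46.7 CPM in rod-like (38.0 to 56.9) and 30.5 in cone-like nuclei (25.5 to 36.2). It held 8.77 in bipolar-like, 7.16 in amacrine-like, 3.49 in Muller glia-like and 1.41 in microglia-like nuclei. Amacrine-like nuclei, highest over the whole Ebf3 window, thus had this region at a lower level than rod-like and cone-like nuclei, and it is called the photoreceptor region below.

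Amacrine-like nuclei were instead highest at the Ebf3 start site and just before that of Ebf1. The region that holds the Ebf3 start site, chr7:137314001-137315000, had 24.3 CPM in amacrine-like (14.2 to 39.0) and 12 in microglia-like nuclei (7.00 to 19.2), whose intervals overlap, and 1.29 to 3.21 in the other classes. Of the amacrine-like fragments, 16 came from 14 of 72 control nuclei and 1 from 1 of 4 Ikzf1/4 nuclei. The microglia-like fragments came from 12 of 110 control nuclei, with 0 from the 18 Ikzf1/4 nuclei. Of the Ebf1 regions, chr11:44617001-44617500, centred 0.85 kb before the start site, had 18.6 CPM in amacrine-like nuclei (9.91 to 31.8) and 0.43 to 3.74 in the other classes. This region rests on 13 fragments in amacrine-like nuclei. The region over the Ebf1 start site itself had 1.05 to 2.83 CPM in all 6 classes, with overlapping intervals.

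Deep inside Ebf1, 2 regions 282.1 and 284.1 kb from the start site were highest in rod-like nuclei. The nearer, chr11:44900001-44900500, had 7.95 CPM in rod-like and 5.03 in bipolar-like nuclei, with overlapping intervals. The farther, chr11:44902001-44902500, had 9.35 in rod-like (5.71 to 14.4) and 0.14 in bipolar-like nuclei. In 3 of the 18 regions the highest class lay above the next beyond counting error, namely this one, the region before the Ebf1 start site and the photoreceptor region of Ebf3. The like share among open regions of other genes was not computed, so nothing is read from this count.

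For Ebf2, the strongest region, chr14:67234001-67235000, lay 1.2 kb inside the lower end of the gene. It had 16.1 CPM in cone-like (12.5 to 20.3), 14.3 in amacrine-like and 8.88 in rod-like nuclei. A region at chr14:67291001-67291500 was highest in Muller glia-like nuclei, at 6.28 CPM (4.40 to 8.69), with 0 to 1.41 in the other classes. Inside Ebf3, chr7:137221501-137222000 was also highest in Muller glia-like nuclei, at 7.15 (5.13 to 9.70). Amacrine-like nuclei came next there, at 5.72 (1.56 to 14.7), with an overlapping interval. The Ebf4 region that holds its start site, chr2:130294501-130296500, was open in all classes, from 9.19 CPM in microglia-like to 20.9 in Muller glia-like nuclei. It lies over the promoter printed above with 75.2% G or C.

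**Figure D3:**
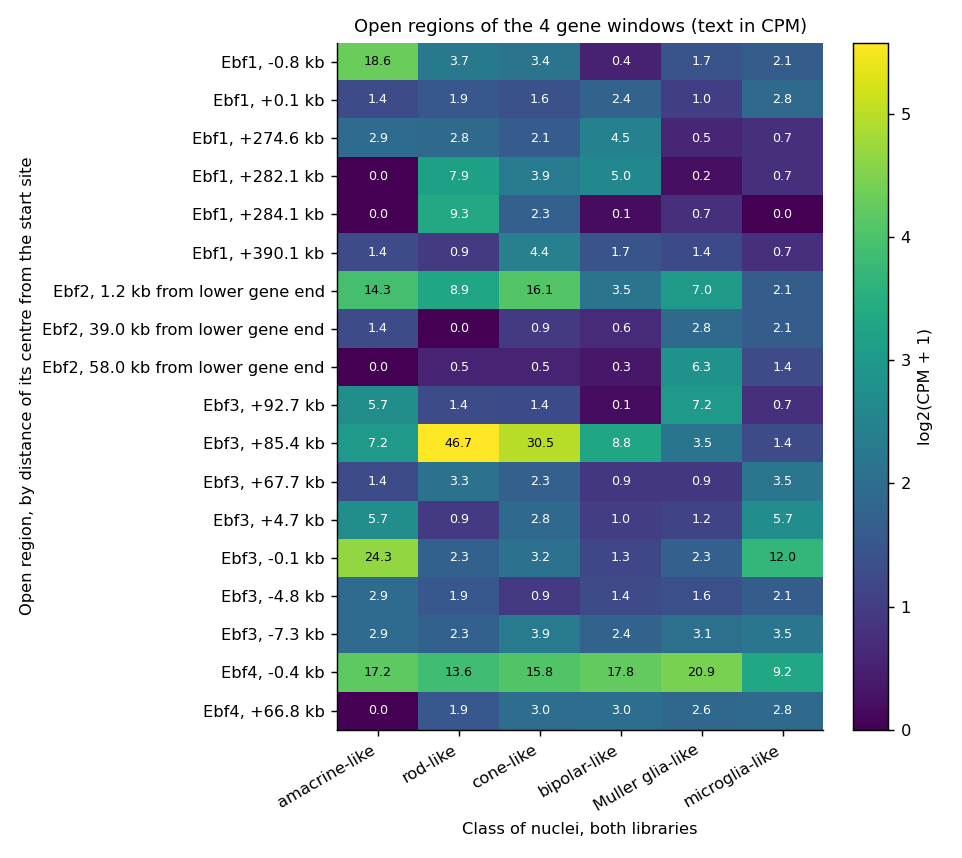
Each row is an open region, placed by the distance in kb of its centre from the start site (for Ebf2 from the lower gene end), and each column a class of nuclei, with the colour as log2(CPM + 1) and the printed number in CPM. Ebf3 at 85.4 kb is highest in rod-like (46.7) and cone-like (30.5) nuclei, and the Ebf4 start region is open in every class.

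**Figure D4:**
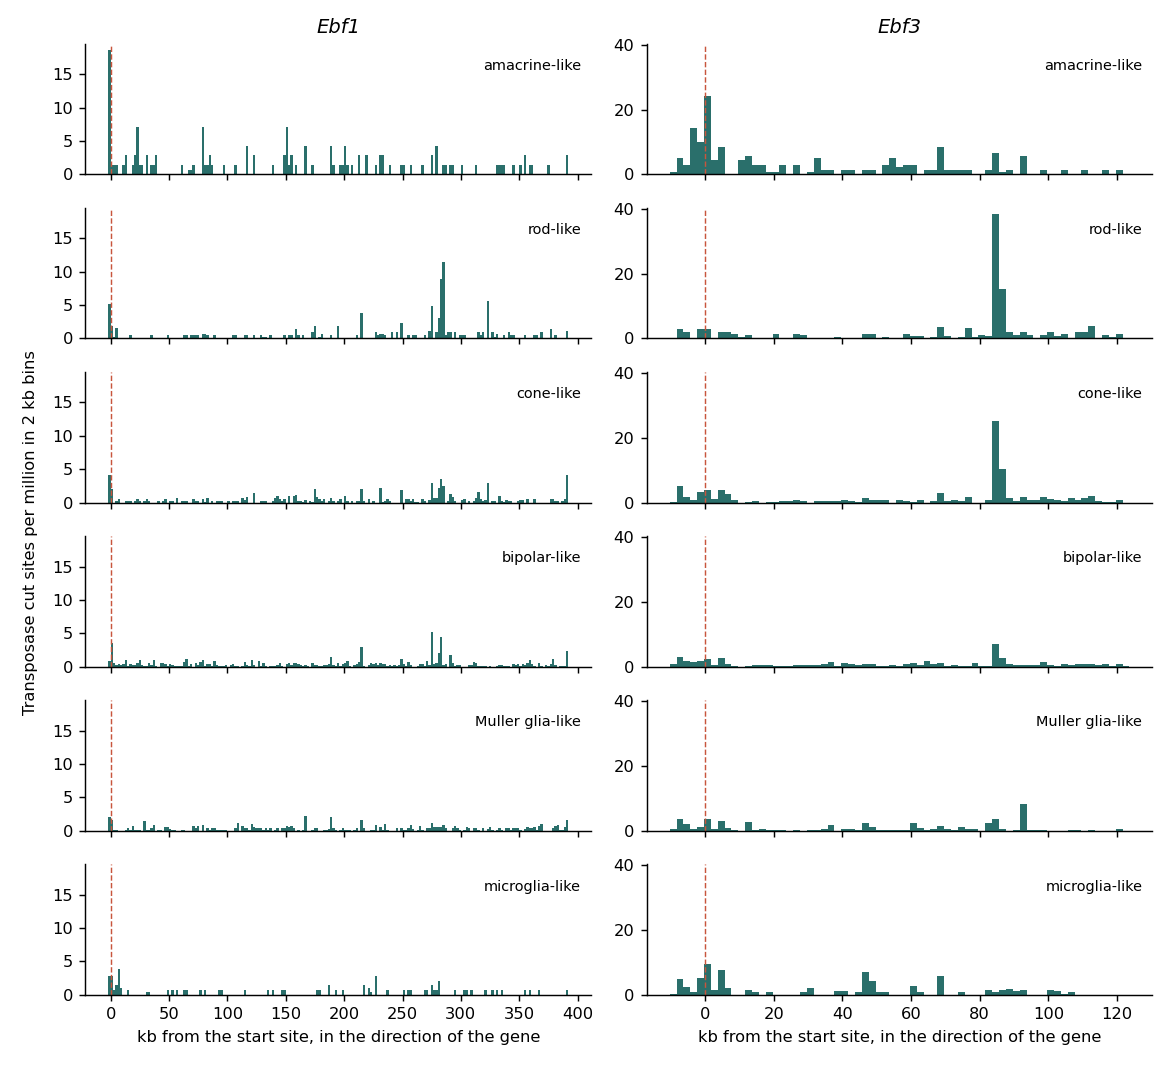
Transposase cut sites per 1000000 in 2 kb bins along Ebf1 (left) and Ebf3 (right), by class of nuclei, with the distance from the start site in kb on the horizontal axis and the start site as a dashed line. Amacrine-like nuclei peak at the Ebf3 start site and just before the Ebf1 start site, while rod-like and cone-like nuclei peak 85.4 kb inside Ebf3.

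Between the 2 libraries, the Ebf2 window was lower with Ikzf1/4 in every choice of nuclei and scaling tried, while the ratios of Ebf3 and Ebf4 depended on that choice. The median ratio of all gene windows was 1.05. The Ebf1 window had 84.9 CPM in control nuclei and 82.1 in those of the Ikzf1/4 library, with a ratio of 0.97 (0.88 to 1.06). That of Ebf3 had 74.2 and 70.2, a ratio of 0.95 (0.86 to 1.04). Both intervals include 1, but that of Ebf3 did not with nuclei of at least 10000 fragments, at 0.84 (0.74 to 0.96), over all barcodes, at 0.86 (0.81 to 0.91), or scaled to fragments in gene windows, at 0.90 (0.81 to 0.99). The Ebf2 window had 52.8 and 36.8, a ratio of 0.70 (0.61 to 0.79), and the Ebf4 window had 39.3 and 47.3, a ratio of 1.20 (1.06 to 1.37). None of the 4 ratios was past 1.5-fold, where 6.38% of 17659 gene windows were, 374 higher and 753 lower. Ebf1 stood at the 33.6 percentile of all ratios, Ebf2 at the 5.49, Ebf3 at the 29.8 and Ebf4 at the 81.4 percentile. The main interval of Ebf3 ended just below the median ratio of all gene windows. With nuclei of at least 10000 fragments the Ebf2 ratio was 0.63, and scaled to fragments in gene windows it was 0.66, both past 1.5-fold. Over all barcodes the Ebf2 ratio was 0.91 and that of Ebf4 was 0.92, on the other side of 1. With nuclei of at least 10000 fragments the Ebf4 ratio was 1.19 and its interval included 1.

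The lower Ebf2 window was seen within Muller glia-like nuclei, at 60.9 CPM in the control (53.5 to 69.0) and 34.0 in the Ikzf1/4 library (25.8 to 43.9). Clusters 0 and 2 held most of this class in both libraries, but at a higher resolution cluster 0 came apart largely by library, into a cluster of 365 control and 13 Ikzf1/4 nuclei and one of 10 and 50. In cluster 0 the values were 69.2 (59.6 to 79.7) and 45.9 (33.7 to 61.0), intervals that overlap only narrowly. In cluster 2 they were 42.2 (31.2 to 55.8) and 11.9 (4.35 to 25.8). In bipolar-like nuclei, which were mostly of clusters 1, 4 and 9 in the control and of clusters 1 and 8 in the Ikzf1/4 library, the Ebf2 values were 46.0 and 36.9, in cone-like nuclei 49.1 and 41.6 and in rod-like nuclei 33.6 and 23.8, all with overlapping intervals. The Muller glia-like region at chr14:67291001-67291500 had 2.49 CPM over all control nuclei and 0.96 over all Ikzf1/4 nuclei, with a ratio of 0.39 (0.16 to 0.82). Within Muller glia-like nuclei it had 7.20 (4.82 to 10.4) and 4.10 (1.65 to 8.44), which overlap. The strongest Ebf2 region, at chr14:67234001-67235000, had a ratio of 0.97 (0.71 to 1.33) over all nuclei, and chr14:67272001-67272500 had one of 1.27 (0.56 to 2.86). Within Muller glia-like nuclei the first of these had 8.2 CPM in the control (5.64 to 11.5) and 4.10 in the Ikzf1/4 library (1.65 to 8.44). In bipolar-like nuclei it had 1.70 (0.68 to 3.51) and 5.97 (3.48 to 9.57). Both pairs of intervals overlap, but the bipolar-like pair, from 7 control and 17 Ikzf1/4 fragments, does so only narrowly.

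A region of Ebf3 and the share of rod-like nuclei both differed between the libraries. The photoreceptor region of Ebf3 had 12.1 CPM over all control nuclei and 17.1 over all Ikzf1/4 nuclei, with a ratio of 1.41 (1.13 to 1.76). Within rod-like nuclei it had 57.5 in the control (40.3 to 79.6) and 42.3 in the Ikzf1/4 library (32.6 to 54.0). Within cone-like nuclei, mostly of cluster 3 in the control and of cluster 6 in the Ikzf1/4 library, it had 33.7 and 26.8, also with overlapping intervals. Rod-like nuclei were 5.05% of control nuclei and 20% of Ikzf1/4 nuclei, with 1 library per group. Within bipolar-like nuclei, again of largely different clusters, the region had 7.30 and 10.9, with overlapping intervals. In the Ikzf1/4 library it was thus lower in rod-like and cone-like nuclei and higher in bipolar-like nuclei, all with overlapping intervals. The part of the class shares in the ratio over all nuclei was not tested.

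Within 1 kb of the Ebf3 start site the ratio was 0.48 (0.30 to 0.75), from 5.99 and 2.89 CPM. Amacrine-like nuclei, highest at this site, were 3.83% of control nuclei and 0.58% of Ikzf1/4 nuclei, with 1 library per group. Without them the ratio was 0.60 (0.36 to 0.96). Microglia-like nuclei, next highest at this site, were 5.85% of control nuclei and 2.59% of Ikzf1/4 nuclei. They had 20 fragments at the site in the control, or 17.2 CPM (10.5 to 26.6), and 0 in the Ikzf1/4 library, which allows up to 14.5 CPM. Without both classes the ratio was 0.84 (0.49 to 1.40). The classes left out were chosen because they were highest at the site, and both had smaller shares and fewer fragments there in the Ikzf1/4 library. A move of the ratio toward 1 was thus built into the choice, and the cause of the ratio was not tested. The ratio at the start site of Ebf1 was 1.03 (0.68 to 1.57) and at that of Ebf4 it was 1.21 (0.98 to 1.48). Of the open regions with ratios away from 1, the Ebf3 region chr7:137221501-137222000 had 46 and 10 fragments and a ratio of 0.32 (0.14 to 0.64). Within Muller glia-like nuclei, where it was highest, it had 8.45 CPM (5.85 to 11.8) and 4.10 (1.65 to 8.44). The Ebf1 region chr11:44902001-44902500 had 14 and 22 fragments and a ratio of 2.30 (1.13 to 4.86). Within rod-like nuclei it had 4.79 CPM (0.99 to 14.0) and 11.2 (6.54 to 18.0). The intervals within both classes overlap. The microglia-like nuclei of the Ikzf1/4 library were too few to read, with 18 nuclei and 3 fragments in the Ebf1 window.

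**Figure D5:**
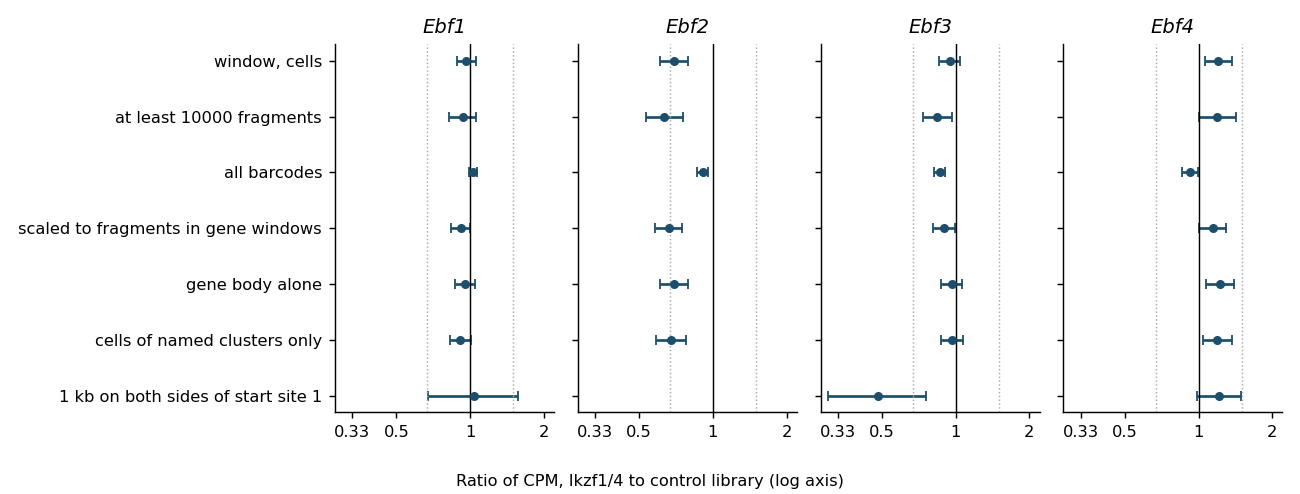
Ratio of CPM (Ikzf1/4 to control library, log axis) for each Ebf gene under up to 7 settings (6 for Ebf2), with 95% exact intervals as bars and dotted lines at 1.5-fold. Ebf2 lies below 1 under every setting drawn (0.70 in its window), and Ebf4 lies above 1 (1.20) except over all barcodes.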

How the data were processed

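The 4 members and the gene lists were chosen with earlier results of these data known. The authors quantified poly(A) RNA with salmon, per the labels, and deposited estimated counts for each transcript. Only their totals per library were used, because no table at hand links transcripts to genes. The authors' deposited table, made with DESeq2 per the labels, gives the mean normalised signal (counts) per gene, the log2 fold change, its standard error, and raw and adjusted p-values; genes without an adjusted p were left out, and 99.2% of its IDs matched the gene name table. The members were taken by symbol, and the IDs of Ebf3 and Ebf4 had the same symbols in the gene name table. This was looked up because Ebf3 is also a synonym of Ebf4. The sources used here do not state a shrinkage of the deposited log2 values, but their errors are small at the lowest means, as those of shrunk values are. Fibroblast ATAC peaks at the Ebf genes were not analysed here, because gene positions of the build of those lists were not used here.

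The authors ran cellranger-arc 2.0.1 on the multiome against mm10, per the file headers, and deposited each unique fragment with its count of read pairs. Barcodes were taken as nuclei from 3000 fragments and from an enrichment of 4 at gene ends, and those above the 99th percentile of fragments were dropped; doublets were not called in any other way. Fragments overlapping a window (gene with 2 kb on both sides) were divided by all fragments of the nuclei (CPM). TF-IDF, 29 SVD components, 15 neighbours and Leiden clustering at resolution 1.0 gave the clusters, without the 4 members and without chromosomes X and Y. A cluster of at least 20 nuclei was named when at least 3 markers of a type passed 1.5-fold, a rule set after the clusters were seen. Ratios have exact conditional 95% intervals, tested on simulated counts, and CPM has exact Poisson intervals. The open regions and the neighbours of the members were also chosen after the data were seen. The named genes were the 4 members, the 3 genes of each list with the smallest adjusted p (with the 2 of highest mean where fewer were called) and the 3 most alike windows. Other called genes of a list were named after their values were seen. Some genes that the rule or the marker lists hold are not reported here. Tools were Python 3 with numpy, scipy, pandas, scikit-learn and leidenalg.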

Additional observations from a re-analysis of the deposited data

How the results depend on the processing

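Of the 4 members, 3 were called in the authors' deposited table at an adjusted p under 0.05 and also under 0.01, 2 with a Bonferroni correction (without Ebf4), and 0 when the fold change also had to exceed 1 on the log2 scale. The share of all genes called was 30.6%, 22.5% at an adjusted p under 0.01, 10.7% with Bonferroni, 2.15% with the fold change, and 33.4% among genes with a mean of at least 10. In the multiome, the ratio over all barcodes was 0.91 for Ebf2 and 0.92 for Ebf4, against 0.70 and 1.20 in nuclei. Ebf3 was at 0.84 with nuclei of at least 10000 fragments and at 0.48 within 1 kb of its start site, and Ebf1 was at 1.10 at its second start site, from few fragments. The ratio at the Ebf3 start site was 0.60 without amacrine-like nuclei and 0.84 without amacrine-like and microglia-like nuclei, settings chosen after seeing the data. The cause of these differences was not tested. The other settings left each ratio within the interval of its main value, among them the nuclei of named clusters alone, a setting chosen after seeing the data. At a lower and a higher clustering resolution the amacrine-like cluster again held 76 nuclei and remained highest for Ebf1, Ebf2 and Ebf3. Its own values were the same at each resolution, so this check says little about them. At the higher resolution a Muller glia-like cluster came next for Ebf2, at 71.3 CPM against 75.8. A cluster of 242 nuclei had ganglion cell markers highest at that resolution. The highest Ebf4 cluster was at 53.8 CPM at the lower and 58.0 at the higher resolution. No paired analysis was possible because no table used here links the transcripts of the estimated counts per library to genes, so the planned fits per library, with and without a replicate block, were not run. Planned peak counts at the Ebf genes were not run either, nor were comparisons of proteins.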
